A study of Caenorhabditis elegans with 8 samples.

Results

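The C-type lectin (*clec-*) genes of *Caenorhabditis elegans* were read out of RNA-seq counts of whole animals at the fourth larval stage (L4). A member was a gene with a WormBase symbol of *clec-* followed by a number and at least 10 unstranded counts in 2 or more of the 16 libraries, and 132 of the 240 *clec-* genes in the count tables qualified. The same minimum kept 16153 of all 46778 genes. The study asked how MBL-1, a Muscleblind-type splicing regulator, acts in the touch receptor neurons, and sequenced 8 strains with 2 libraries each, described as biological replicates. Animals were hatched as synchronised L1 larvae, fed *Escherichia coli* OP50 and harvested whole at L4. No pathogen was given, so the values below are those of animals on their laboratory food.

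Among the 4 strains with an intact *mec-3*, *mbl-1(tm1563)* was set against WT, which held only the reporter, and the double mutant *mec-7(u278) mbl-1(tm1563)* against *mec-7(u278)*, which was in turn set against WT. The 4 *mec-3* strains were *mbl-1(tm1563); mec-3(unk206)*, its background *mec-3(unk206)*, and the single mutants *mec-3(syb8382)* and *mec-3(u184)*. Every strain carried an integrated red fluorescent touch neuron reporter driven by the *mec-17* promoter. The insertion was *uIs134* in *mec-3(syb8382)* as in *mec-3(u184)*, and *uIs115* in the other strains, so that allele and insertion cannot be told apart where those strains were set against *mec-3(unk206)*. *tm1563* removes an exon that all *mbl-1* isoforms share and shifts the frame, *u278* changes the β-tubulin MEC-7, *u184* served as the loss of *mec-3*, *syb8382* removes the exon needed for the long *mec-3* isoform, and *unk206* leaves only that isoform. The study examined the mutated genes in neurons, and its paper also reports strong expression of an *mbl-1* promoter reporter in the spermatheca and uterus. No lectin was itself a target of the study. RNA of a whole animal mixes all tissues, and a lower level may reflect fewer cells of a type or less RNA in each cell, which these data cannot separate.

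C-type lectin domains are compact, disulphide-linked folds, many of which bind sugars in a calcium-dependent way. The family is large in *C. elegans*, most of its proteins are thought to be secreted, and many of the genes are expressed in the intestine and change when the animals meet pathogenic bacteria or fungi. Some of those responses pass through the PMK-1 p38 kinase pathway. Other members work away from immunity, among them *clec-87* and *clec-88*, which code for chondroitin proteoglycans.

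Between 22296336 and 23180583 reads per library were assigned to genes. Levels are given as CPM, counts scaled to a common library size of 1e+06 after TMM normalization. The 8 libraries of *mbl-1(tm1563)*, *mec-7(u278) mbl-1(tm1563)*, *mec-7(u278)* alone and WT held 50.8 to 51.3% of their reads on the second strand and the 8 libraries of the *mec-3* strains 97.7 to 98.4%, although the labels describe all as strand-specific. The kind of library cannot be told apart from the presence of a *mec-3* allele, so the comparisons below are between strains of the same kind. The 6 non-MSP sperm markers summed to between 1.53 and 355 CPM, the 12 hypodermis and moult markers to between 149 and 5710 CPM, the 8 intestine markers to between 1581 and 7255 CPM and the 6 neuron markers to between 222.3 and 586 CPM. All 4 lists had reads in every library, but the sperm markers were close to 0 in the second *mbl-1(tm1563)* library, which had the lowest of these sums. The cultures were not equally far through L4. A score of L4 progress, the mean log2(CPM + 1) over 29 genes for major sperm proteins (*msp-*), which are made as spermatogenesis proceeds during L4, was 5.44 and 0.53 in the *mbl-1(tm1563)* libraries, 7.37 and 6.71 in *mec-7(u278) mbl-1(tm1563)*, 6.56 and 4.81 in the *mec-7(u278)* single mutant and 2.91 and 4.76 in WT. In the *mec-3* strains it lay between 6.75 and 7.37 with replicates close together.

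The lectins took up a small part of the RNA, and a few genes carried most of it. The 132 members summed to between 3522 CPM, in the second library of *mbl-1(tm1563); mec-3(unk206)*, and 8351 CPM, in the first library of *mbl-1(tm1563)*. Per kilobase of exon, *clec-63* was the highest at a mean of 1364 CPM per kb over the 16 libraries and made up 30.8% of the summed lectin CPM. *clec-50* followed at 742 CPM per kb and 13.5% of the sum, then *clec-83* at 277.7, *clec-87* at 245 and *clec-150* at 231 CPM per kb. *clec-63* varied 3.61-fold between its lowest and highest library (786 and 2833 CPM). *clec-87*, by contrast, ran from 1.04 to 617 CPM. At the other end, 72 members had at least 10 counts in all 16 libraries.

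The rule left some genes close to its limit. *clec-2*, *clec-9*, *clec-167* and *clec-266* had 10 counts in exactly 2 libraries. *clec-2* had 28 and 24 counts in *mbl-1(tm1563)* and at most 8 in any other library, and *clec-167* had 13 and 13 counts in *mbl-1(tm1563); mec-3(unk206)* and at most 8 elsewhere. Just outside the rule, *clec-99* had 66 counts in the first *mec-7(u278)* library and at most 9 in any other. Of the 108 *clec-* genes left out, 81 reached 10 counts in no library and 27 in a single library, which for 24 of them was the first library of *mec-7(u278)*. *clec-38*, a lectin with a neuronal role, and *clec-39*, needed for defence against *Serratia*, were among the genes left out.

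Lectins that followed the progress of the cultures were found with a fit of strain plus the msp score over all 16 libraries. Because strain was in the fit, the slope rested on differences between the 2 libraries of a strain, nearly all of them in the 4 unstranded strains. The slope was called for 27 of 132 lectins (20.5%; edgeR, adjusted p under 0.05), against 20.4% of all genes, so lectins followed this score as often as genes in general. Of these, 26 had a positive slope, where 19.2% of all genes had a called positive slope. *clec-233* alone had a negative slope, where 1.21% of all genes had a called negative slope. Within the 4 unstranded strains, *clec-208* was higher in the more advanced library in 2 of 4 pairs. *clec-54* and *clec-119* were so in 3 of 4, and the rest of the 26 in 4 of 4.

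The proteoglycan gene *clec-87* had 48 and 1.04 CPM in the *mbl-1(tm1563)* libraries, 300 and 215 CPM in *mec-7(u278) mbl-1(tm1563)*, 107 and 39 CPM in the *mec-7(u278)* single mutant, and 4.18 and 28.8 CPM in WT. In each of these strains the library with the higher msp score held the higher level, whereas among the *mec-3* strains, whose replicates had nearly equal scores, this held in 1 of 4 pairs. Its slope was 1.12 log2 units per unit of the score (SE 0.07, edgeR adjusted p = 2.25e-06). *clec-88*, the other proteoglycan gene, had 16.7 and 0.544 CPM in *mbl-1(tm1563)*, 146 and 65.5 CPM in *mec-7(u278) mbl-1(tm1563)*, 40.5 and 12.5 CPM in the *mec-7(u278)* single mutant, and 3.30 and 9.58 CPM in WT. It kept the same order and had a slope of 0.98 (SE 0.06, edgeR adjusted p = 1.29e-06). *clec-91* moved in the same way, with a slope of 0.97 (SE 0.06, edgeR adjusted p = 1.47e-06).

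A further group of lectins had slopes of about the same size. *clec-151* had 9.68 and 0.099 CPM in *mbl-1(tm1563)*, 25.4 and 14.7 CPM in *mec-7(u278) mbl-1(tm1563)*, 17.8 and 4.43 CPM in the *mec-7(u278)* single mutant and 2.58 and 5.36 CPM in WT, and a slope of 1.10 (SE 0.10, edgeR adjusted p = 1.63e-05). *clec-73* had 24.2 and 0.792 CPM in *mbl-1(tm1563)*, 55.4 and 37.9 CPM in *mec-7(u278) mbl-1(tm1563)*, 44.8 and 13.0 CPM in the *mec-7(u278)* single mutant and 7.23 and 13.4 CPM in WT, and a slope of 0.91 (SE 0.07, edgeR adjusted p = 3.64e-06). For both genes every one of these 4 pairs followed the score. *clec-79*, *clec-117*, *clec-123* and *clec-153*, with slopes of 0.96 to 1.03, behaved likewise. *clec-41*, a lectin of defence against *Bacillus thuringiensis*, had a shallower slope of 0.43 (SE 0.06, edgeR adjusted p = 0.000366), with 135 and 38.1 CPM in *mbl-1(tm1563)*, 241 and 144 CPM in *mec-7(u278) mbl-1(tm1563)*, 82.7 and 44.0 CPM in the *mec-7(u278)* single mutant and 73.8 and 198 CPM in WT. *clec-85*, a target of the PMK-1 pathway, had a slope of 0.28 (SE 0.06, edgeR adjusted p = 0.00784).

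The steepest slopes belonged to genes with 0 reads in some library, where the size of a slope depends on the prior count of the fit. They were 3.83 for *clec-222* (SE 0.61), 2.02 for *clec-168* (SE 0.44), 1.81 for *clec-97* (SE 0.22), 1.6 for *clec-147* (SE 0.19), 1.48 for *clec-208* (SE 0.45) and 1.12 for *clec-175* (SE 0.14). *clec-222* had 0 counts in the first WT library and the second *mbl-1(tm1563)* library and 269 in the first library of *mec-7(u278) mbl-1(tm1563)*. Its slope was 1.9 without the second *mec-7(u278) mbl-1(tm1563)* library and 5.0 without the second *mec-7(u278)* library. *clec-208* had 82 counts in the first *mec-7(u278)* library and at most 18 elsewhere, and its slope was 0.49 without the second *mec-7(u278)* library. *clec-97* lies opposite *clec-98*, and over the *mec-3* libraries it had 448 unstranded counts and 534 second-strand counts. *clec-233*, the lectin that fell as the score rose, had 9.63 and 20.9 CPM in *mbl-1(tm1563)*, 2.32 and 4.08 CPM in *mec-7(u278) mbl-1(tm1563)*, 4.46 and 9.60 CPM in the *mec-7(u278)* single mutant and 11.5 and 9.99 CPM in WT (slope −0.28, SE 0.07, edgeR adjusted p = 0.0156). These 4 pairs all ran against the score. Within the 8 stranded libraries alone, whose replicates differ little in the score, edgeR called 0 lectin slopes of 126 tested, against 0% of all genes.

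**Figure D1:**
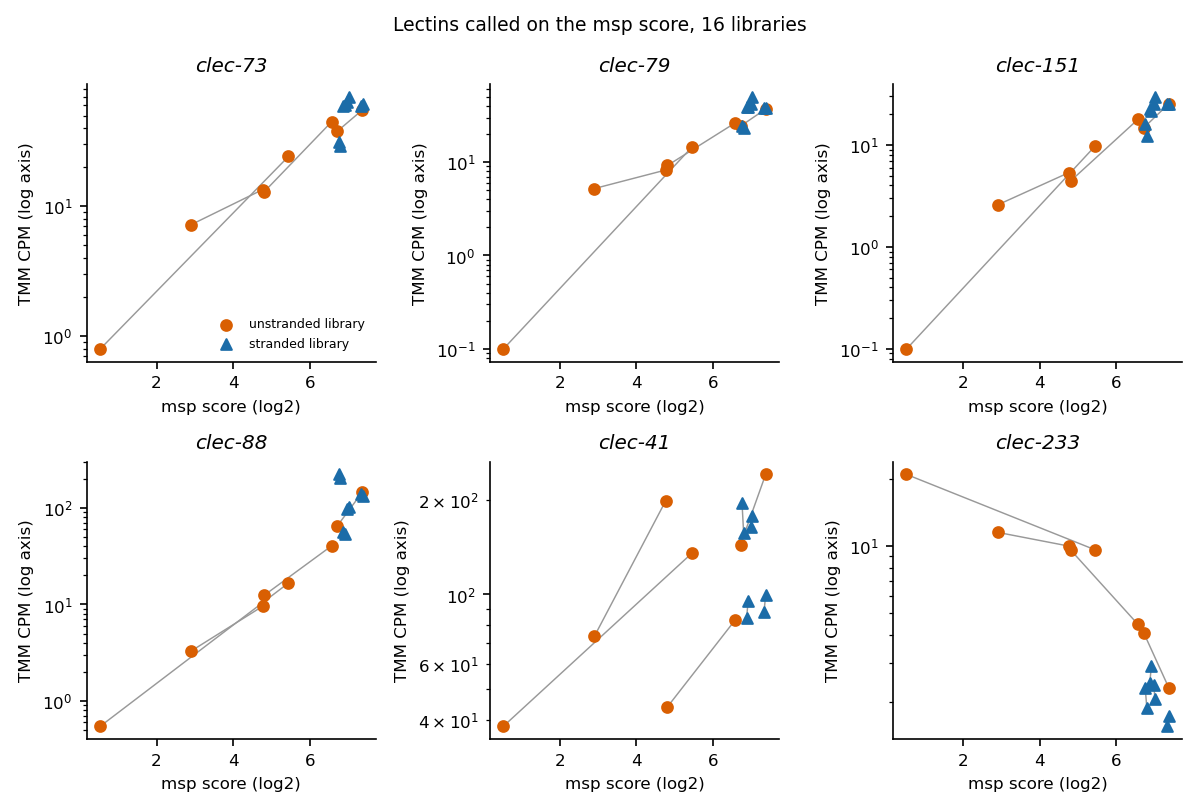
CPM on a log axis against the msp score for *clec-73*, *clec-79*, *clec-151*, *clec-88*, *clec-41* and *clec-233*, with 1 point per library (circles, unstranded libraries; triangles, stranded libraries) and grey lines that join the 2 libraries of a strain. The lines of the 4 unstranded strains climb for the first 5 genes, steeply for *clec-88* and shallowly for *clec-41*, and descend for *clec-233*, while the short lines of the stranded strains run both ways.

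Sperm, oocyte and yolk genes outside the family showed the same direction. All 6 non-MSP sperm markers, all 7 oocyte markers and all 6 vitellogenins (*vit-*, yolk proteins made by the intestine) had positive slopes past the threshold (edgeR, adjusted p under 0.05), and the 8 intestine markers were not among the genes called. Of 36 lysozymes and saposin-like proteins, which are antimicrobial effectors, 3 rose with the score. In the other direction, 2 of 6 neuron markers and 1 of 12 hypodermis and moult markers were called lower as the score rose. The summed sperm, oocyte and yolk markers moved together between the 2 libraries of each unstranded strain, on which the slopes mostly rest. The score therefore cannot say which tissue a lectin followed. These markers did part in *mbl-1(tm1563); mec-3(unk206)* against *mec-3(unk206)*, as given further on.

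Other lectins followed a score built from moult genes. This second score, the mean log2(CPM + 1) of 12 hypodermis and moult genes such as *mlt-10* and *noah-1*, was chosen after seeing the data. In place of the msp score it gave 24 called lectins of 132 (18.2%; edgeR, adjusted p under 0.05), against 20.8% of all genes, and only *clec-222* was among the 27 lectins called on the msp score. It was 7.59 and 8.27 in *mbl-1(tm1563)*, 3.35 and 6.93 in *mec-7(u278) mbl-1(tm1563)*, 6.09 and 7.73 in the *mec-7(u278)* single mutant and 8.40 and 7.98 in WT. Of the 24, 19 were higher where the moult genes were higher and 5 lower. Of the 19, *clec-5*, *clec-10*, *clec-52*, *clec-83*, *clec-84* and *clec-230* were so in only 2 of 4 unstranded pairs. The rest were so in 3 or 4 pairs. The intestine markers summed to 1581 and 4072 CPM in *mec-7(u278) mbl-1(tm1563)* and 3728 and 7157 CPM in the *mec-7(u278)* single mutant. Their sum was also higher with this score in *mbl-1(tm1563)* but not in WT, and their part in these lectin values was not tested.

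*clec-180* had 97.8 and 170 CPM in *mbl-1(tm1563)*, 5.66 and 68.0 CPM in *mec-7(u278) mbl-1(tm1563)*, 40.5 and 131 CPM in the *mec-7(u278)* single mutant and 195 and 134 CPM in WT. In every one of these strains it was higher in the library with the higher moult score, and it changed by −1.02 log2 units per unit fall of that score (edgeR adjusted p = 2.5e-05). *clec-72* had 88.7 and 130 CPM in *mbl-1(tm1563)*, 5.28 and 22.4 CPM in *mec-7(u278) mbl-1(tm1563)*, 12.7 and 45.2 CPM in the *mec-7(u278)* single mutant and 76.7 and 71.3 CPM in WT, and changed by −0.68 per unit fall. *clec-48*, at −0.87 per unit fall, had 14.1 and 132 CPM in *mec-7(u278) mbl-1(tm1563)* and 81.5 and 232.7 CPM in *mec-7(u278)*, but its *mbl-1(tm1563)* libraries, at 489 and 453 CPM, ran against the score. *clec-49*, a lectin of *Serratia* defence, changed by −0.60, *clec-84* by −0.53 and the abundant *clec-83* by −0.37. *clec-26* ran the other way, with 6.30 and 2.32 CPM in *mec-7(u278) mbl-1(tm1563)* and 2.67 and 0.682 CPM in the *mec-7(u278)* single mutant, and changed by 0.52 per unit fall.

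**Figure D2:**
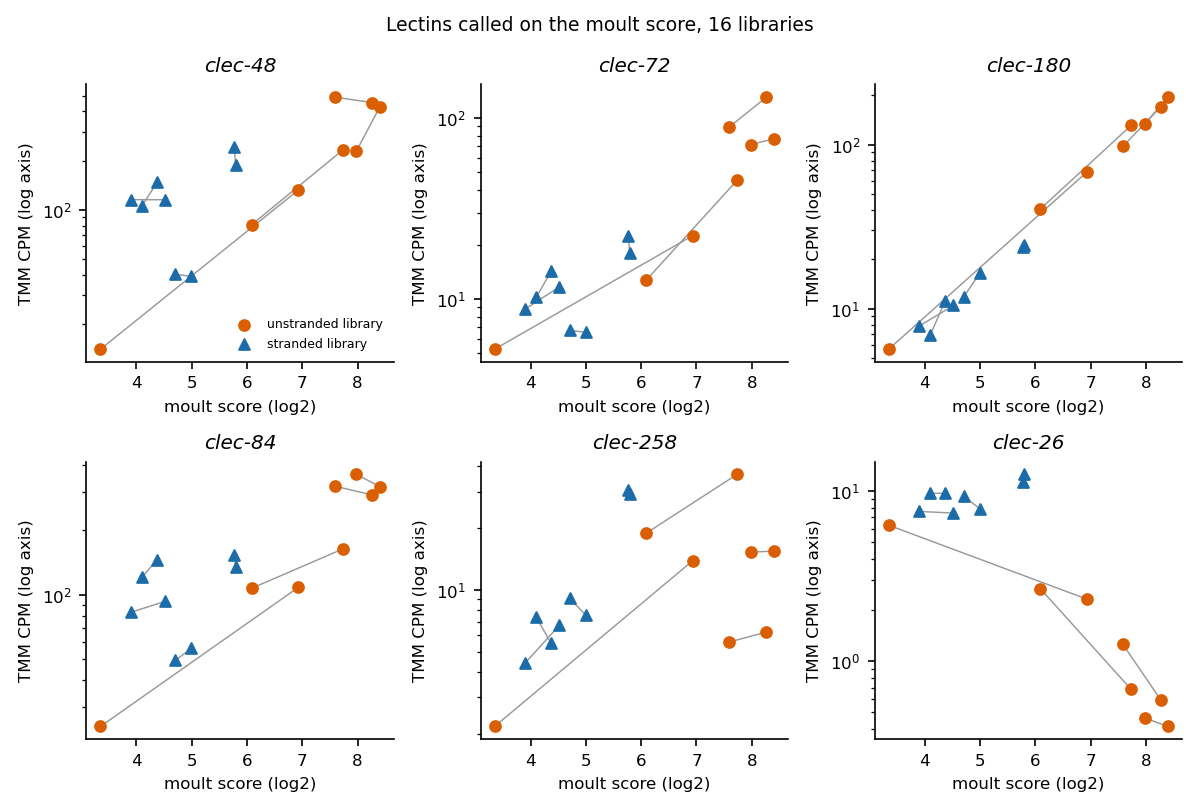
CPM on a log axis against the moult score for *clec-48*, *clec-72*, *clec-180*, *clec-84*, *clec-258* and *clec-26*, drawn as in the plot of CPM against the msp score. In the unstranded strains *clec-72*, *clec-180* and *clec-258* climb with the moult score in all 4 pairs, *clec-48* in 3 and *clec-84* in 2, and *clec-26* descends in all 4, while the lines of the stranded strains are mixed except for *clec-180*.

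Lectins that differed by strain were sought in the fit that already held the msp score, as a joint test of the 6 contrasts between strains of the same library kind. The test called 26 of 132 lectins (19.7%; edgeR, adjusted p under 0.05), against 9.27% of all genes. Of these, 20 had no slope on the msp score, and *clec-41*, *clec-65*, *clec-87*, *clec-88*, *clec-91* and *clec-119* had both. The 26 include *clec-2* (edgeR adjusted p = 0.0385), which met the member minimum only through its *mbl-1(tm1563)* libraries, with 28 and 24 counts. A further 21 were called on the slope alone and 85 on neither. The smallest p-values belonged to *clec-91* (edgeR adjusted p = 0.00203), *clec-88* (0.00261), *clec-74* (0.008), *clec-67* (0.0101), *clec-70* (0.0112), *clec-62* (0.0121), *clec-87* (0.0124), *clec-41* (0.0128), *clec-51* (0.0186) and *clec-47* (0.02). The same test over the 8 unstranded libraries called 0 lectins of 117 with edgeR, where 0.0128% of all genes were called. Over the 8 stranded libraries it called 79 (62.7%), against 55.1% of all genes. The unstranded replicates were far less similar, so these counts do not show which strains a joint call rested on. *clec-2* had at most 3 counts in any *mec-3* library. Leaving out either *mbl-1(tm1563); mec-3(unk206)* library left only *clec-88* and *clec-91* called. Leaving out either *mec-3(u184)* library left 4, either *mec-3(unk206)* library 9, and the first or second *mec-3(syb8382)* library 10 or 8. The share of all genes is not given beside these lower counts, so they are not a result about lectins in particular. Without the first or second *mec-7(u278) mbl-1(tm1563)* library the count rose to 48 or 67, as the share of all genes rose to 23.3 or 38.4%. With an oocyte score, chosen after seeing the data, beside the msp score, 7 lectins were called (5.3%), against 1.5% of all genes. These were *clec-41*, *clec-60*, *clec-62*, *clec-70*, *clec-74* and *clec-76* of the 26, plus *clec-218*, so that *clec-67*, *clec-87*, *clec-88* and *clec-91* no longer passed.

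Several of these lectins were set apart by a single strain. *clec-74* had 10.2 and 9.84 CPM in *mec-3(syb8382)* and between 0.601 and 2.96 CPM in the other 14 libraries. *clec-67*, a PMK-1 target, had 12.1 and 11.2 CPM in *mbl-1(tm1563); mec-3(unk206)* and between 49.2 and 237 CPM in the other 14. In both cases the 2 libraries of the strain lay outside the range of all the rest. *clec-4*, a lectin that responds to pathogens, likewise had 3.41 and 4.04 CPM in *mbl-1(tm1563); mec-3(unk206)* and between 9.65 and 26.1 CPM elsewhere.

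The joint p-values belong to all 6 contrasts, and the levels in the unstranded strains that follow are a description. *clec-70* had 9.08 and 11.4 CPM in *mbl-1(tm1563)*, 0.607 and 0.0859 CPM in *mec-7(u278) mbl-1(tm1563)*, 0.162 and 0.390 CPM in the *mec-7(u278)* single mutant and 6.45 and 7.52 CPM in WT. The 2 unstranded strains with *mec-7(u278)* did not overlap with the 2 without it. The low level was not seen only with *mec-7(u278)*. In the *mec-3* strains, whose libraries are of the other kind, *clec-70* had from 6 to 27 counts, against 125 and 146 in WT. *clec-47* was spread widely, with 122 and 48.8 CPM in *mbl-1(tm1563)*, 10.2 and 12.3 CPM in *mec-7(u278) mbl-1(tm1563)*, 5.06 and 7.07 CPM in the *mec-7(u278)* single mutant and 94.9 and 22.9 CPM in WT. The 2 WT libraries lay far apart, and the strains with *mec-7(u278)* lay below both. *clec-60*, which responds to Gram-positive bacteria, had 70.6 and 73.1 CPM in *mbl-1(tm1563)*, 4.44 and 6.10 CPM in *mec-7(u278) mbl-1(tm1563)*, 0.891 and 6.04 CPM in the *mec-7(u278)* single mutant and 12.8 and 44.8 CPM in WT.

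**Figure D3:**
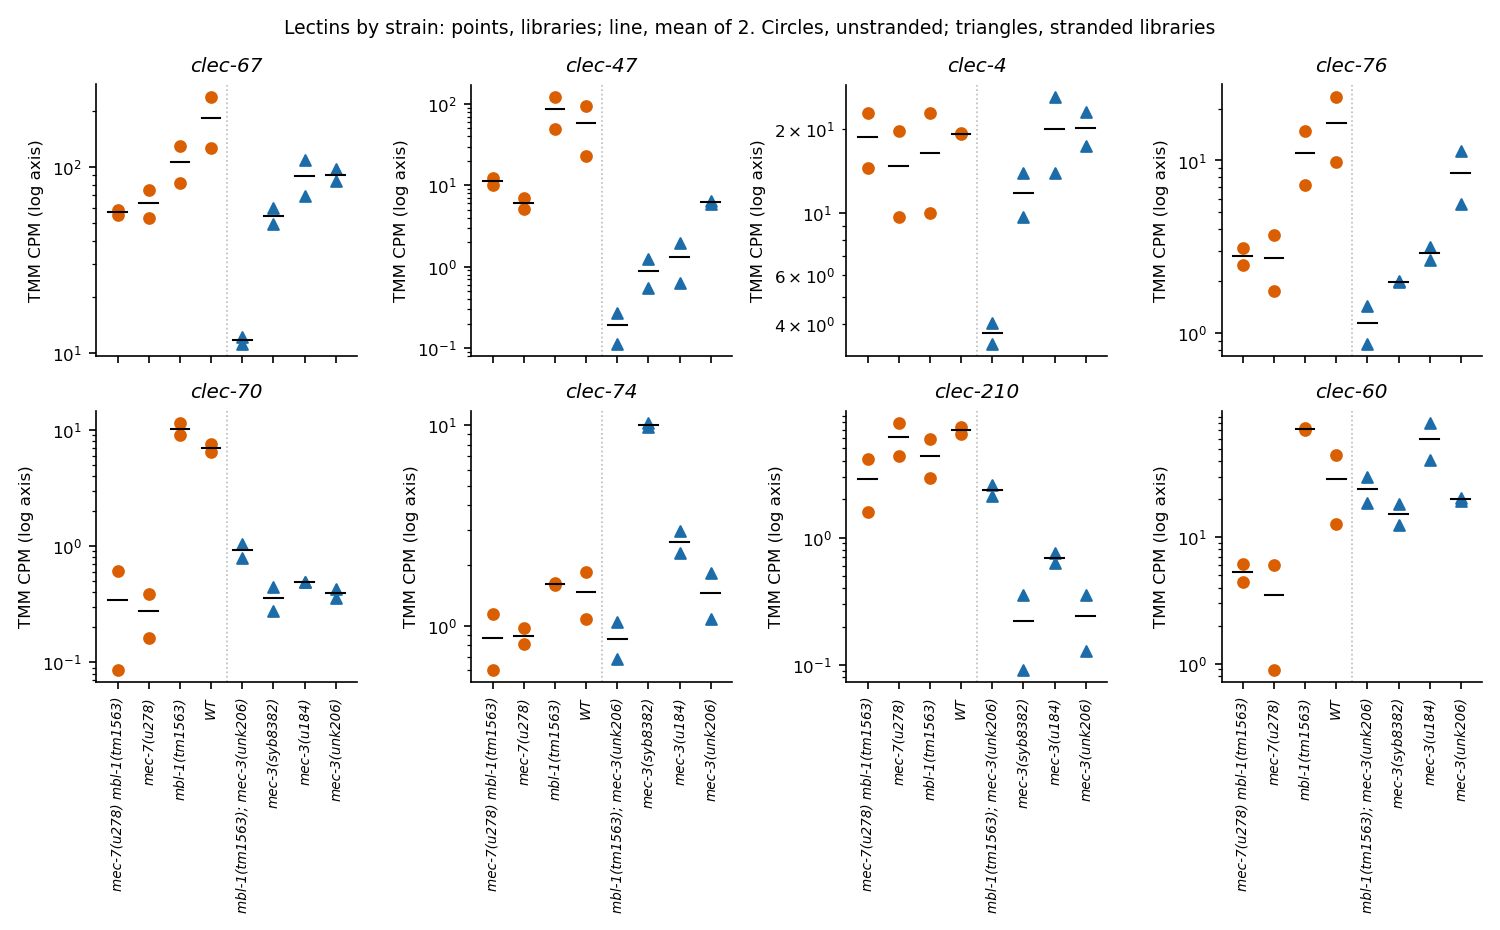
CPM in the 8 strains for *clec-67*, *clec-47*, *clec-4*, *clec-76*, *clec-70*, *clec-74*, *clec-210* and *clec-60*, with 1 point per library and a line at the mean of the 2. *clec-74* stands out in *mec-3(syb8382)*, *clec-67* and *clec-4* are lowest in *mbl-1(tm1563); mec-3(unk206)*, and the 2 *clec-47* libraries of WT lie far apart (94.9 and 22.9 CPM).

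The loss of *mbl-1* was compared with its background 3 times. The lectins changed past the threshold only beside *mec-3(unk206)*, where the replicates were also closer to each other, and whether the effect differed between backgrounds was tested separately, as given further on.

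In the WT background 0 of 104 lectins tested passed with edgeR, against 0% of all genes, and DESeq2 also called 0, where it called 0.138% of all genes. At an unadjusted p under 0.05, edgeR had 6 lectins (5.77%), against 1.11% of all genes. The 4 with the smallest p-values were *clec-258*, at 5.57 and 6.24 CPM in *mbl-1(tm1563)* and 15.4 and 15.2 CPM in WT; *clec-82*, at 17.1 and 11.9 CPM in *mbl-1(tm1563)* and 24.6 and 37.7 CPM in WT; *clec-17*, at 2.96 and 2.97 CPM in *mbl-1(tm1563)* and 1.03 and 1.03 CPM in WT; and *clec-61*, at 0.802 and 0.842 CPM in *mbl-1(tm1563)* and 2.01 and 3.96 CPM in WT. The strains did not overlap at these 4 genes, as at 32 lectins in all (30.8%), against 21.6% of all genes, and each had an edgeR adjusted p of 1. The median log2 fold change was −0.04 over the lectins and −0.03 over all genes tested.

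In the *mec-7(u278)* background 0 of 111 lectins passed with edgeR, against 0% of all genes, and DESeq2 called 0, where it called 0.105% of all genes. At an unadjusted p under 0.05 there were 7 (6.31%), against 3.68% of all genes. *clec-41* had 241 and 144 CPM in *mec-7(u278) mbl-1(tm1563)* and 82.7 and 44.0 CPM in *mec-7(u278)* (log2 fold change 1.58, SE 0.47, edgeR adjusted p = 0.659). *clec-223* had 35.8 and 6.06 CPM in *mec-7(u278) mbl-1(tm1563)* and 2.59 and 1.27 CPM in *mec-7(u278)* (log2 fold change 3.41, SE 1.0), and the value was 1.61 without the first and 4.17 without the second *mec-7(u278) mbl-1(tm1563)* library. *clec-87* had 300 and 215 CPM in *mec-7(u278) mbl-1(tm1563)* and 107 and 39 CPM in *mec-7(u278)* (1.79, SE 0.57, and 2.73 without the first *mec-7(u278)* library). These strains did not overlap at the 3 genes, as at 47 lectins in all (42.3%), against 46% of all genes. *clec-125* was lower, with 0.304 and 0.301 CPM in *mec-7(u278) mbl-1(tm1563)* and 1.58 and 0.926 CPM in *mec-7(u278)* (−2.07, SE 0.65). *clec-41*, *clec-223* and *clec-87* are lectins with a slope on the msp score, and both *mec-7(u278) mbl-1(tm1563)* libraries had a higher msp score (7.37 and 6.71) than the *mec-7(u278)* libraries (6.56 and 4.81), a difference whose part in these values was not tested. Without the second *mec-7(u278) mbl-1(tm1563)* library, 4 lectins were called (3.33%), against 2.18% of all genes. The median log2 fold change was −0.29 over the lectins and −0.05 over all genes.

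Beside *mec-3(unk206)* the loss of *mbl-1* went with lower levels of many lectins. Of the lectins tested, 68 passed (57.1%; edgeR, adjusted p under 0.05), against 36.4% of all genes. The lectins called lower numbered 52 (43.7%), against 22% of all genes, and those called higher 16 (13.4%), against 14.4% of all genes. The median log2 fold change was −0.33 over the lectins and −0.01 over all genes. DESeq2 called 56 of the same 68, and 31.1% of all genes. A single fit of all 16 libraries, whose estimate of the spread includes the far less similar unstranded replicates, called only *clec-67* of the lectins and 0.18% of all genes.

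Among lectins with a known part in immunity, *clec-67* had 12.1 and 11.2 CPM in *mbl-1(tm1563); mec-3(unk206)* and 83.9 and 96.7 CPM in *mec-3(unk206)*. It was 7.75-fold lower (log2 fold change −2.96, SE 0.16, edgeR adjusted p = 8.36e-10). *clec-4* had 3.41 and 4.04 CPM in *mbl-1(tm1563); mec-3(unk206)* and 17.4 and 23 CPM in *mec-3(unk206)* and was 5.43-fold lower (−2.44, SE 0.21, edgeR adjusted p = 2.49e-07). *clec-85*, the other PMK-1 target, fell less, with 27.6 and 20.9 CPM in *mbl-1(tm1563); mec-3(unk206)* and 53.7 and 56.8 CPM in *mec-3(unk206)* (−1.19, SE 0.16, edgeR adjusted p = 2.21e-05). *clec-49* had 20.3 and 23.2 CPM in *mbl-1(tm1563); mec-3(unk206)* and 80.2 and 61.2 CPM in *mec-3(unk206)* (−1.70, SE 0.16, edgeR adjusted p = 8.24e-07).

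Not all of this group fell. *clec-86*, which responds to *Microbacterium nematophilum*, had 7.39 and 5.17 CPM in *mbl-1(tm1563); mec-3(unk206)* and 2.42 and 2.46 CPM in *mec-3(unk206)* and rose (log2 fold change 1.36, SE 0.24, edgeR adjusted p = 0.000268). *clec-42*, which with *clec-41* acts in defence against *B. thuringiensis*, had 1.74 and 1.17 CPM in *mbl-1(tm1563); mec-3(unk206)* and 0.648 and 0.358 CPM in *mec-3(unk206)* (1.54, SE 0.39, edgeR adjusted p = 0.0048). *clec-41* itself did not pass, with 195 and 157 CPM in *mbl-1(tm1563); mec-3(unk206)* and 163 and 177 CPM in *mec-3(unk206)* (0.05, SE 0.15, edgeR adjusted p = 0.832). *clec-60* did not pass either, with 29.9 and 18.5 CPM in *mbl-1(tm1563); mec-3(unk206)* and 20.4 and 19.4 CPM in *mec-3(unk206)* (0.28, SE 0.19, edgeR adjusted p = 0.265). *clec-61*, its neighbour on chromosome II, fell (−0.86, SE 0.31, edgeR adjusted p = 0.0373).

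The greatest fall was that of *clec-47*, with 0.271 and 0.113 CPM in *mbl-1(tm1563); mec-3(unk206)*, from 7 and 3 reads, and 5.92 and 6.44 CPM in *mec-3(unk206)* (log2 fold change −4.98, SE 0.36, edgeR adjusted p = 4.58e-08). *clec-76* had 1.43 and 0.869 CPM in *mbl-1(tm1563); mec-3(unk206)* and 11.4 and 5.56 CPM in *mec-3(unk206)* and was 7.29-fold lower (edgeR adjusted p = 4.14e-06). *clec-172* followed at −1.72. The greatest rise was that of *clec-210*, with 2.13 and 2.57 CPM in *mbl-1(tm1563); mec-3(unk206)* and 0.130 and 0.358 CPM in *mec-3(unk206)* (3.22, SE 0.41, edgeR adjusted p = 1.38e-05). *clec-71*, at 1.81, and *clec-266*, at 1.55, also rose, but *clec-266* met the member minimum only through these *mbl-1(tm1563); mec-3(unk206)* libraries, with 16 and 13 counts there and at most 7 elsewhere. All of these genes were weakly expressed in the 2 strains compared, although *clec-47* reached 122 CPM in *mbl-1(tm1563)*. They were taken from the lectins at which the strains did not overlap, 94 of those tested (79%), against 69.3% of all genes.

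The most abundant lectins fell as well. *clec-63* had 916 and 786 CPM in *mbl-1(tm1563); mec-3(unk206)* and 2237 and 1861 CPM in *mec-3(unk206)* (log2 fold change −1.27, SE 0.15, edgeR adjusted p = 5.32e-06). *clec-50* had 298 and 268 CPM in *mbl-1(tm1563); mec-3(unk206)* and 839 and 741 CPM in *mec-3(unk206)* (−1.48, SE 0.14, edgeR adjusted p = 9.85e-07). *clec-83* fell by 1.33 and *clec-150* by 0.99 on the log2 scale. The summed lectin level was 3853 and 3522 CPM in *mbl-1(tm1563); mec-3(unk206)*, against 6348 and 5717 CPM in *mec-3(unk206)*.

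The proteoglycan genes went the other way. *clec-87* had 571 and 617 CPM in *mbl-1(tm1563); mec-3(unk206)* and 309 and 268 CPM in *mec-3(unk206)* (log2 fold change 1.05, SE 0.14, edgeR adjusted p = 2.79e-05), and *clec-88* had 223 and 206 CPM in *mbl-1(tm1563); mec-3(unk206)* and 97.9 and 103 CPM in *mec-3(unk206)* (1.09, SE 0.14). *clec-91* rose by nearly as much, with 139 and 118 CPM in *mbl-1(tm1563); mec-3(unk206)* and 58.7 and 60.2 CPM in *mec-3(unk206)* (1.11, SE 0.15). The lectins that followed the msp score thus divided in this comparison, where the msp scores themselves were close (6.75 and 6.79 in *mbl-1(tm1563); mec-3(unk206)*, 6.98 and 7.0 in *mec-3(unk206)*). Of the 26 with a positive slope, 15 fell, among them *clec-73*, *clec-79*, *clec-119* and *clec-151*, and 6 rose, namely *clec-87*, *clec-88*, *clec-91*, *clec-97*, *clec-222* and *clec-223*.

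**Figure D4:**
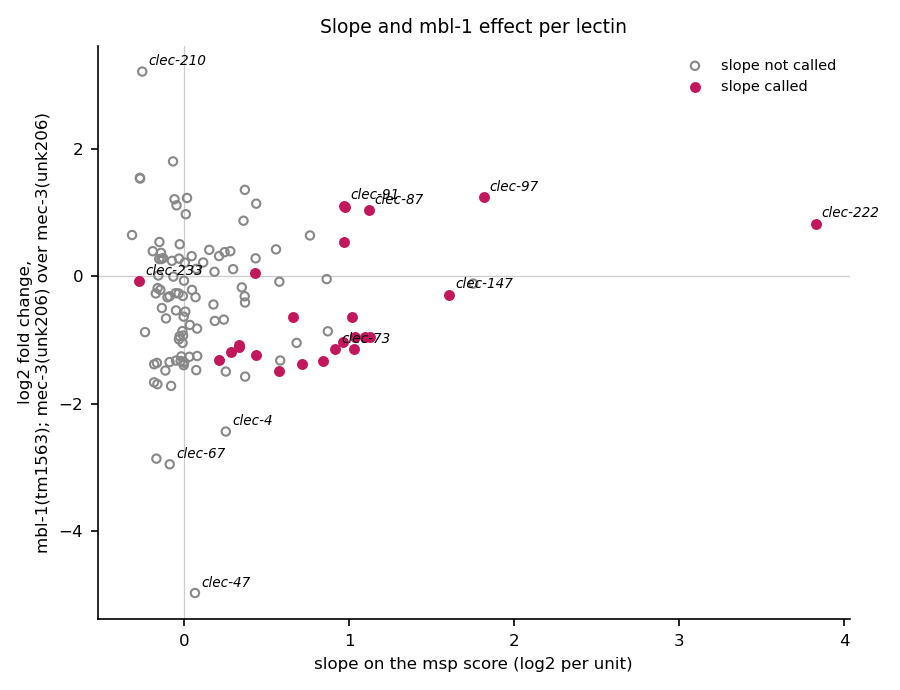
The log2 fold change of *mbl-1(tm1563); mec-3(unk206)* over *mec-3(unk206)* against the slope on the msp score (log2 units per unit of the score), with 1 point per lectin and filled points where the slope was called. Filled points lie on both sides of 0, with *clec-87*, *clec-88* and *clec-91* near 1 and *clec-73*, *clec-79* and *clec-151* near −1.

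Marker genes of several tissues moved in the same comparison. The 8 intestine markers summed to 2319 and 2045 CPM in *mbl-1(tm1563); mec-3(unk206)* and 4426 and 3627 CPM in *mec-3(unk206)*, and 7 of the 8 were called lower. They include *elt-2*, the GATA factor that drives intestinal genes, at 13.5 and 13.8 CPM in *mbl-1(tm1563); mec-3(unk206)* and 37.9 and 31.2 CPM in *mec-3(unk206)*. All 6 vitellogenins and 5 of 6 non-MSP sperm markers were lower, whereas all 7 oocyte markers were higher, summing to 2690 and 2908 CPM in *mbl-1(tm1563); mec-3(unk206)* and 1490 and 1193 CPM in *mec-3(unk206)*. Of the 12 hypodermis and moult markers, 7 were higher and 0 lower (median log2 fold change 0.57), and the moult score was 4.71 and 4.99 in *mbl-1(tm1563); mec-3(unk206)* and 4.37 and 4.10 in *mec-3(unk206)*. Of the 19 lectins that were higher where the moult score was higher, however, 10 fell and 2 rose. The 7 regulators of intestinal immunity and GATA factors had 5 members lower. Of the PMK-1 pathway, 3 of 6 genes were lower, among them the adaptor gene *tir-1* and the kinase gene *nsy-1*, and of 33 lysozymes and saposin-like genes tested 12 were lower and 2 higher. The part of tissue shares in the lectin values was not tested.

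The tubulin mutant *mec-7(u278)* was set against WT. edgeR called 0 of 106 lectins, where 0.0204% of all genes were called, and 17 had an unadjusted p under 0.05 (16%), against 7.05% of all genes. DESeq2 called 7, where it called 0.625% of all genes, namely *clec-47*, *clec-52*, *clec-70*, *clec-71*, *clec-76*, *clec-206* and *clec-230*. *clec-70* had 0.162 and 0.390 CPM in the *mec-7(u278)* single mutant and 6.45 and 7.52 CPM in WT (log2 fold change −4.65, SE 0.66, edgeR adjusted p = 0.562). Its neighbour *clec-71* had 0.284 and 0.244 CPM in the *mec-7(u278)* single mutant and 9.19 and 2.47 CPM in WT (−4.47, SE 0.89). *clec-52* had 8.75 and 25.9 CPM in the *mec-7(u278)* single mutant and 98.8 and 137 CPM in WT, and *clec-230* had 7.70 and 7.02 CPM in the *mec-7(u278)* single mutant and 30.6 and 19.5 CPM in WT. The strains did not overlap at these 4 genes, as at 50 lectins in all (47.2%), against 46.9% of all genes. The *mec-3* strains, of the other library kind, were also below WT at *clec-70* (6 to 27 counts, against 125 and 146). The same held at *clec-52* (165 to 527, against 1913 and 2658) and *clec-230* (29 to 146, against 593 and 378). At *clec-71* they had 7 to 56 counts, against 178 and 48 in WT. *clec-52* and *clec-230* were called on the moult score, which was 6.09 and 7.73 in the *mec-7(u278)* single mutant and 8.40 and 7.98 in WT. Each was higher in the library with the higher moult score in only 2 of 4 unstranded pairs. Among the *mec-3* pairs this held in 0 of 4 for *clec-52* and 3 of 4 for *clec-230*. The part of the moult score in the difference was not tested. Leaving out the second WT library brought the calls to 5 (1.23% of all genes) and leaving out the first to 1 (0.0891% of all genes).

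The 3 *mec-3* strains without *tm1563* were compared in pairs, which share their libraries with each other and with the comparison of *mbl-1(tm1563); mec-3(unk206)*. The *mec-3(syb8382)* and *mec-3(u184)* strains have the same reporter insertion, so that comparison is of the alleles alone as far as the labels tell. It had 48 of 117 lectins called (41%; edgeR, adjusted p under 0.05), against 46% of all genes. Of these, 40 were lower (34.2%), against 22.7% of all genes, and 8 higher (6.84%), against 23.3% of all genes. The median log2 fold change was −0.44 over the lectins and −0.04 over all genes. A single fit of all 16 libraries called 0 lectins with edgeR in this comparison (0.0498% of all genes), in *mec-3(u184)* against *mec-3(unk206)* (0.106%) and in *mec-3(syb8382)* against *mec-3(unk206)* (0.0311%).

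The 8 lectins higher in *mec-3(syb8382)* were *clec-74*, *clec-190*, *clec-87*, *clec-88*, *clec-91*, *clec-97*, *clec-222* and *clec-223*. *clec-74* had 10.2 and 9.84 CPM in *mec-3(syb8382)* and 2.29 and 2.96 CPM in *mec-3(u184)* (log2 fold change 1.92, SE 0.17, edgeR adjusted p = 0.000942). *clec-87* had 426 and 481 CPM in *mec-3(syb8382)* and 176 and 176 CPM in *mec-3(u184)* (1.35, SE 0.08, edgeR adjusted p = 0.000482), and *clec-88* (1.30) and *clec-91* (1.27) rose by similar amounts. Among the lectins that fell, *clec-258* had 6.72 and 4.39 CPM in *mec-3(syb8382)* and 29.3 and 30.6 CPM in *mec-3(u184)* (−2.44, SE 0.18, edgeR adjusted p = 0.00061). *clec-60* had 18.2 and 12.6 CPM in *mec-3(syb8382)* and 40.9 and 79.7 CPM in *mec-3(u184)* (−1.98, SE 0.32, edgeR adjusted p = 0.00403). *clec-61* fell by 2.15, *clec-42* by 2.14, *clec-168* by 2.43 and *clec-82* by 1.83 on the log2 scale. The change of *clec-42* was −1.22 without the first *mec-3(u184)* library.

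Of the 19 lectins that were higher where the moult score was higher, 16 fell and 0 rose in *mec-3(syb8382)* relative to *mec-3(u184)*. The moult score was 4.52 and 3.90 in *mec-3(syb8382)* and 5.79 and 5.77 in *mec-3(u184)*, and 11 of the 12 moult markers, all 8 intestine markers and 17 of 31 lysozymes and saposin-like genes were also lower, while all 7 oocyte markers were higher. Their part in the lectin differences was not tested.

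The *mec-3(u184)* strain differed from *mec-3(unk206)* at 32 lectins (26.9% of those tested; edgeR, adjusted p under 0.05), against 27.3% of all genes. The lectins called higher in *mec-3(u184)* numbered 19 (16%), against 14.9% of all genes, and those called lower 13 (10.9%), against 12.4% of all genes. The lectins thus changed about as often as genes in general. *clec-258* had 29.3 and 30.6 CPM in *mec-3(u184)* and 5.49 and 7.35 CPM in *mec-3(unk206)* (log2 fold change 2.23, SE 0.16, edgeR adjusted p = 5.39e-05). *clec-60* had 40.9 and 79.7 CPM in *mec-3(u184)* and 20.4 and 19.4 CPM in *mec-3(unk206)* (1.61, SE 0.25, edgeR adjusted p = 0.00192), and its change was 1.06 without the second *mec-3(u184)* library. *clec-86* rose as well (1.11), as did *clec-180* (1.44), *clec-82* (1.37), *clec-229* (1.93) and *clec-238* (1.18). Of the 19 lectins higher with the moult score, 10 rose and 0 fell, and 11 of the 12 moult markers were higher. These 19 lectins were picked by their moult slope over the same libraries, and both comparisons with *mec-3(u184)* use its 2 libraries. In *mbl-1(tm1563); mec-3(unk206)* against *mec-3(unk206)*, 10 of the 19 fell and 2 rose, while 7 of the 12 moult markers were higher. The part of the moult score in these values was not tested.

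Lectins that fell in *mec-3(u184)* included *clec-54*, *clec-55* and *clec-227*, which lie in a cluster of 5 on chromosome V, and *clec-41*. *clec-227* had 4.72 and 4.75 CPM in *mec-3(u184)* and 12 and 11.6 CPM in *mec-3(unk206)* (log2 fold change −1.30, SE 0.15, edgeR adjusted p = 0.000437). *clec-41* had 84.3 and 95.7 CPM in *mec-3(u184)* and 163 and 177 CPM in *mec-3(unk206)* (−0.91, SE 0.11, edgeR adjusted p = 0.000547). *clec-47* (−2.23) and *clec-76* (−1.52) fell by more but are expressed at lower levels, and *clec-76* was at −0.96 without the first *mec-3(unk206)* library.

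The *mec-3(syb8382)* strain differed from *mec-3(unk206)* at 30 of 117 lectins (25.6%; edgeR, adjusted p under 0.05), against 13.9% of all genes. Of these, 23 were lower (19.7%), against 8.41% of all genes, and 7 higher (5.98%), against 5.49% of all genes. *clec-74* had 10.2 and 9.84 CPM in *mec-3(syb8382)* and 1.08 and 1.83 CPM in *mec-3(unk206)* (log2 fold change 2.76, SE 0.25, edgeR adjusted p = 0.000312). It was followed by *clec-97* (1.15), *clec-190* (1.04), *clec-223* (0.75), *clec-87* (0.64) and *clec-91* (0.48). *clec-47* had 1.25 and 0.549 CPM in *mec-3(syb8382)* and 5.92 and 6.44 CPM in *mec-3(unk206)* (−2.78, SE 0.31, edgeR adjusted p = 0.000777). *clec-76* (−2.09), *clec-55* (−1.98), *clec-17* (−1.50), *clec-61* (−1.45) and *clec-7* (−1.35) also fell, *clec-17* by 0.90 without the first *mec-3(unk206)* library. The immune lectins *clec-67* (−0.74, edgeR adjusted p = 0.0063) and *clec-4* (−0.78, edgeR adjusted p = 0.0285) were also lower. Without the second *mec-3(syb8382)* library 12 lectins were called (9.84%), against 7.22% of all genes. In the same comparison all 7 oocyte markers and 4 of 6 vitellogenins were higher, while 3 of 8 intestine markers, 3 of the 7 intestinal immune and GATA regulators and 10 of 31 lysozymes and saposin-like genes were lower and 1 higher. None of the 12 moult markers passed, and 4 of the 19 lectins higher with the moult score fell. The part of these markers in the lectin values was not tested.

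**Figure D5:**
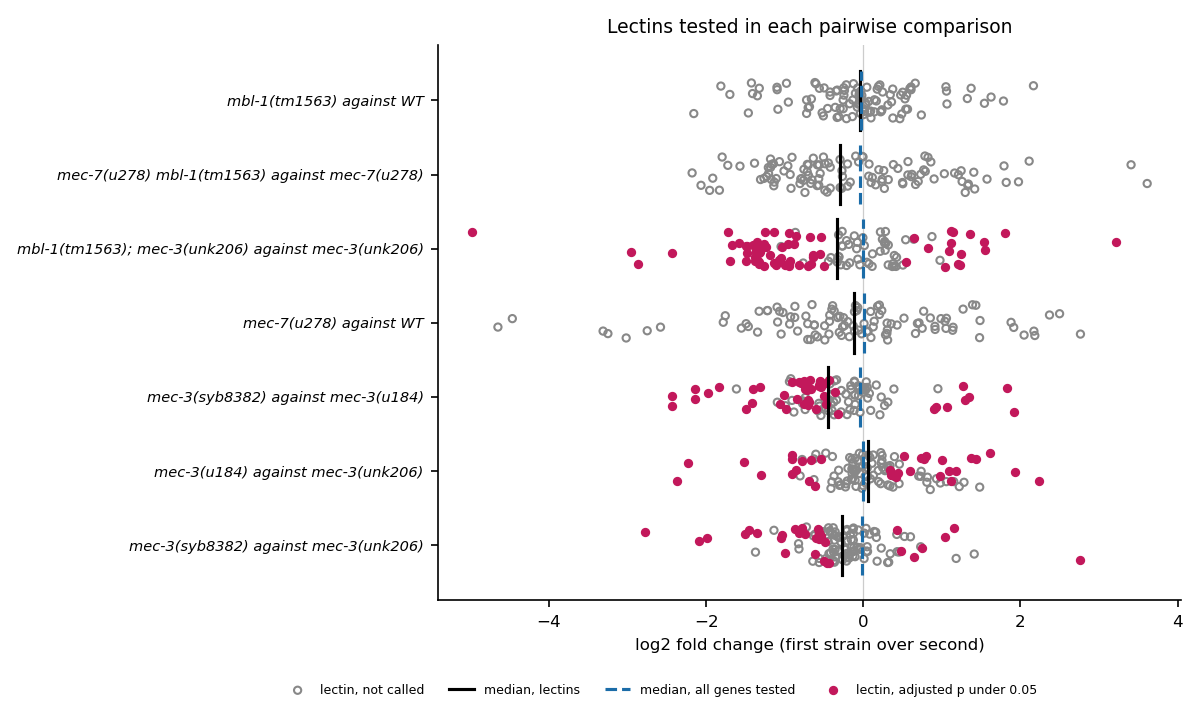
Log2 fold changes of each lectin tested in the 7 comparisons, with the median over the lectins as a solid line and the median over all genes tested as a dashed line. The lectin median lies furthest below that of all genes in *mec-3(syb8382)* over *mec-3(u184)* (−0.44 against −0.04) and in *mbl-1(tm1563); mec-3(unk206)* over *mec-3(unk206)* (−0.33 against −0.01).

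Whether the *mbl-1(tm1563)* effect differed between backgrounds was tested as an interaction over 8 libraries. Between the *mec-7(u278)* and WT backgrounds, edgeR called 0 of 117 lectins, against 0% of all genes. At an unadjusted p under 0.05 there was 1 lectin, against 1.67% of all genes, and DESeq2 called 0, where it called 0.0256% of all genes. Between the *mec-3(unk206)* and WT backgrounds, edgeR called 0 of 127 lectins, against 0.0192% of all genes, although 29 (22.8%) had an unadjusted p under 0.05, against 9.14% of all genes, and DESeq2 called 15, where it called 3.48% of all genes. The difference was −2.19 log2 units for *clec-67* (SE 0.49, edgeR adjusted p = 0.421), −5.50 for *clec-47* (SE 1.22, edgeR adjusted p = 0.405), −2.22 for *clec-4* (SE 0.57, edgeR adjusted p = 0.452) and 3.87 for *clec-210* (SE 0.77, edgeR adjusted p = 0.378). Leaving out the first *mbl-1(tm1563)* library brought the calls to 22 (16.7%), against 8.38% of all genes, and leaving out the second to 4 (3.03%), against 0.647% of all genes. The falls beside *mec-3(unk206)* were therefore not shown by edgeR over all the libraries to differ from those in the WT background.

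Position in the genome separated some of these patterns only in part. Of the 132 lectins, 50 lie on chromosome V, 35 on IV, 27 on II, 9 on I, 8 on III and 3 on X (WBcel235), and 81 have another member within 10 kb, in 25 clusters. A cluster of 9 on chromosome IV, from position 3922165 to 3975721, held *clec-67*, *clec-70*, *clec-71*, *clec-72*, *clec-73*, *clec-74*, *clec-75*, *clec-76* and *clec-79*. Its members differed. *clec-73* and *clec-79* followed the msp score, *clec-72* followed the moult score, and *clec-67*, *clec-70*, *clec-71*, *clec-74* and *clec-76* differed by strain, with *clec-74* highest in *mec-3(syb8382)* and *clec-67* lowest in *mbl-1(tm1563); mec-3(unk206)*. By contrast, in the cluster of 5 on chromosome II, from position 12893062 to 12906644, *clec-62*, *clec-63*, *clec-65* and *clec-66* all differed by strain and all fell in *mbl-1(tm1563); mec-3(unk206)*, by 1.25 to 1.47 log2 units, and *clec-64* fell by 1.05. The largest cluster, 11 lectins on chromosome V from position 16839121 to 16869840, had 0 members called by strain, while *clec-24* followed the msp score and *clec-26*, *clec-28* and *clec-40* were lower where the moult score was higher. Exons of 20 members overlap a gene on the other strand and those of 9 members a gene on the same strand, so reads over such overlaps cannot be assigned to one gene in the unstranded libraries. Among the *mec-3* strains, second-strand counts separate genes on opposite strands. They gave 66 called lectins in the comparison of *mbl-1(tm1563); mec-3(unk206)* with *mec-3(unk206)*. The unstranded counts gave 68 there (57.1%), against 36.4% of all genes.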

How the data were processed

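Libraries were made by BGI from total RNA. The authors aligned reads with STAR 2.7.10 to WBcel235 and deposited counts of reads per gene, 1 column unstranded and 1 for each strand. The deposited unstranded counts were used throughout, since 8 of 16 libraries kept no strand. Lines of unmapped, multimapping, unassigned and ambiguous reads were left out of library sizes. The labels name DESeq2 for the authors' tests. Symbols came from the WBcel235 annotation (43818 of 46778 identifiers matched). Members and lists were chosen with earlier results of these data known.

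Tests used edgeR 4.0.16 in R 4.3.3 (TMM, filterByExpr, quasi-likelihood F test), with Benjamini-Hochberg adjustment over all genes tested and a threshold of 0.05. Each pair of strains was fitted on its own 4 libraries, interactions on 8, and the msp slope and strain test on all 16. CPM were TMM-scaled, and scores used a pseudocount of 1 CPM. Alternatives were DESeq2 1.42.0, RLE size factors, other filters, second-strand counts, other scores, a replicate block and leaving out each library. The fits were also run on simulated data, whose outcome is not given here. The replicate numbers are those of file names and tie no libraries together. The methods name 2 biological replicates, and p-values measure only the spread between such libraries.

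Lectins named were the 6 greatest non-overlapping called rises and falls per comparison (or the 4 smallest p-values where none passed), the 8 greatest called slopes each way, the 10 smallest p-values by strain, the 5 highest levels per kb, and lectins of known role. Others named as cluster members or as examples were chosen after their values were seen. Sequences were not used here.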

Additional observations from a re-analysis of the deposited data

Results flagged for a closer look

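The *clec-* genes below the member minimum gave a signal in a single library. Summed over the 108 genes left out, the first *mec-7(u278)* library held 1371 counts, against 95 in the second *mec-7(u278)* library, 75 and 73 in the WT libraries and between 69 and 158 over the other 15 libraries. The sum was noticed in counts that no comparison of the report uses. The greatest single contributions there were 140 counts of *clec-197*, 134 of *clec-207*, 112 of *clec-137*, 98 of *clec-92* and 94 of *clec-219*, each with at most 8 counts in any other library. The same library held 82 counts of the member *clec-208*, against at most 18 elsewhere.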

How the results depend on the processing

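Between *mec-3* strains, DESeq2, RLE size factors, other filters and second-strand counts gave similar counts of called lectins. A single fit of all 16 libraries called 1 lectin in *mbl-1(tm1563); mec-3(unk206)* against *mec-3(unk206)* and 0 in *mec-3(syb8382)* against *mec-3(u184)*, in *mec-3(u184)* against *mec-3(unk206)* and in *mec-3(syb8382)* against *mec-3(unk206)*. Against WT, *mec-7(u278)* had 1 called lectin in that fit (0.758%; 0.0995% of all genes), 7 with DESeq2 (6.6%; 0.625%) and 15 with no filter on low counts. The msp slope was called for 11 lectins with at least 10 counts in every library, 18 in the 8 unstranded libraries (15.4%; 11.8% of all genes) and 0 in the 8 stranded ones. In the stranded libraries the slopes of *clec-222* (−10.43), *clec-97* (−10.73), *clec-147* (−6.01), *clec-87* (−1.21) and *clec-151* (−1.61) turned negative without passing (edgeR adjusted p = 0.999). The strain test called 58 lectins with DESeq2 (43.9%; 33% of all genes), 42 with a vitellogenin score (31.8%; 24.9%), 0 in the unstranded and 79 in the stranded libraries (62.7%; 55.1%), 51 over 7 contrasts of strains, 1 of them across the library kinds (38.6%; 29.6%), and, with scores added after seeing the data, 7 with msp and oocyte scores (5.3%; 1.5%) and 49 with msp and moult scores (37.1%; 25.6%). The interaction between the *mec-3(unk206)* and WT backgrounds had 15 calls with DESeq2. The restricted fits hold fewer samples or genes, and the cause of the other shifts was not tested. Where a count of lectins is given without the share of all genes, it cannot be read as a result about lectins. Of the named lectins' 65 calls with an adjusted p in DESeq2, 57 passed there and 8 did not, and 4 of 12 uncalled results passed. Of the 48 calls that the single fit of 16 libraries could repeat, 1 passed and 47 did not, and 1 uncalled result passed.

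Leaving out 1 library at a time gave 0 called lectins throughout for *mbl-1(tm1563)* against WT, 0 to 4 for *mec-7(u278) mbl-1(tm1563)* against *mec-7(u278)*, 54 to 62 for *mbl-1(tm1563); mec-3(unk206)* against *mec-3(unk206)*, 0 to 5 for *mec-7(u278)* against WT, 35 to 54 for *mec-3(syb8382)* against *mec-3(u184)*, 25 to 40 for *mec-3(u184)* against *mec-3(unk206)*, 12 to 29 for *mec-3(syb8382)* against *mec-3(unk206)*, 24 to 32 for the slope, 2 to 67 for the strain test and 0 to 22 for the interaction with *mec-3(unk206)*. With the replicate number as a block, in the same order of the 7 comparisons, 0, 0, 67, 0, 45, 42 and 38 lectins were called; the correlation of replicate differences ran between −0.51 and 0.445, so the numbers were not taken as pairs. Crossing the numbers, added after seeing the data, gave 0, 70, 0 and 52 calls in the 4 comparisons with a correlation under −0.1. The 70 were 58.8% of the lectins tested, against 46.4% of all genes, and the 52 were 44.4%, against 48.5%.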
